A study of Homo sapiens with 6 samples.

Results

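The major histocompatibility complex (MHC) on chromosome 6 was examined for occupancy by METTL14 in HepG2 cells, an established human line from a hepatocellular carcinoma. Its islands were all those overlapping 28500 to 33500 kb of chromosome 6 on the genome build hg19 by at least 1 bp, apart from the islands over 32925 to 32960 kb. An island is a run of windows with many reads, as called by SICER. This gave 210 of the 38696 candidate islands of untreated cells and 284 of the 67802 of cells given DRB, so 494 of 106498 in all. Only position chose them among the candidates, and that choice did not use read counts, widths or folds. Each had first to be called as a run of windows with many reads. Their counts, widths and folds are therefore not free of that earlier step.

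METTL14 helps bind RNA for its catalytic partner METTL3, and together they place N6-methyladenosine on RNA, much of it during transcription. All cells carried METTL14 with an HA tag at its N terminus and EGFP at its C terminus, delivered by lentivirus, kept under puromycin and sorted for high GFP, so the occupancy is that of an overexpressed protein in a selected population. Antibody to HA was used for the chromatin immunoprecipitation (IP), and sheared chromatin without IP served as input. The untreated condition had 2 IP and 2 input libraries. The DRB condition had 1 of each, from cells kept in 100 µM DRB for 3 h. DRB is a nucleoside analog that inhibits CDK9 and so keeps RNA polymerase II from elongating. The deposited tables hold 1 count per island and condition, so no value has an error between replicates. Intervals are exact 95% intervals of the reads, and they cover counting error only.

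The MHC is a gene-dense and highly polymorphic stretch of the genome, divided into blocks named for their genes. Class I holds genes such as HLA-B and HLA-C, which present peptides from inside the cell to cytotoxic T cells and are made by most cells, hepatocytes included. Class III holds no antigen-presenting genes and carries complement components such as C2 and CFB, which the liver secretes into plasma, with TNF, heat shock genes and many housekeeping genes. Class II holds the HLA-DR, HLA-DQ and HLA-DP genes, which professional antigen-presenting cells use to show peptides to helper T cells, beside TAP1, TAP2 and PSMB8 of the class I peptide supply. In RefSeq's gene order for GRCh38.p14, 49 protein-coding genes run from HLA-F to MICB, 61 from MCCD1 to BTNL2 and 18 from HLA-DRA to HLA-DPB1. That table is of another build, so it gives names and order only. Islands are named by their hg19 position and were not assigned to genes. Class I, class III and class II below mean the positions under 31500 kb, from 31500 to 32400 kb and above 32400 kb. Each island was placed by its midpoint. These bounds were not matched to the ends of the gene blocks. Narrower bounds are also used below. They leave out 65 untreated class I islands at 28500 to 29600 kb and 14 of class II at 33100 to 33500 kb.

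Island coverage was uneven along the window in both conditions. In untreated cells, 138 islands lay in class I, 43 in class III and 29 in class II. They covered 25% of class I, 23.4% of class III and 12.8% of class II, against 23.2% of the rest of chromosome 6. Class II thus had about the same island width as the others, with a median of 4.2 kb against 4.4 kb in each of them, but fewer islands, 27.2 per Mb against 46 and 47.8. With DRB, class II was again the least covered, while class III came above class I. The 187, 54 and 43 DRB islands covered 14.0%, 15.6% and 8.56% of class I, class III and class II. The rest of the chromosome was covered to 12.2%.

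Coverage moved in blocks of 0.5 Mb. The block from 28500 to 29000 kb was the most covered of the 10, at 49.96% untreated and 21.2% with DRB. Blocks from 30000 to 31000 kb and from 31500 to 32000 kb followed, with 27.7 to 31.7% untreated and 18.6 to 19.6% with DRB. Between them lay sparse blocks at 29500 to 30000 kb (7.92% and 5.44%) and 31000 to 31500 kb (6.88% and 8.56%). Of the 10 blocks, 5 were above the median block of the rest of chromosome 6 untreated and 6 with DRB. The share covered had a Spearman's rho of 0.89 between the conditions across the 10 blocks; the points share the sequence and copy number of the cells.

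**Figure D1:**
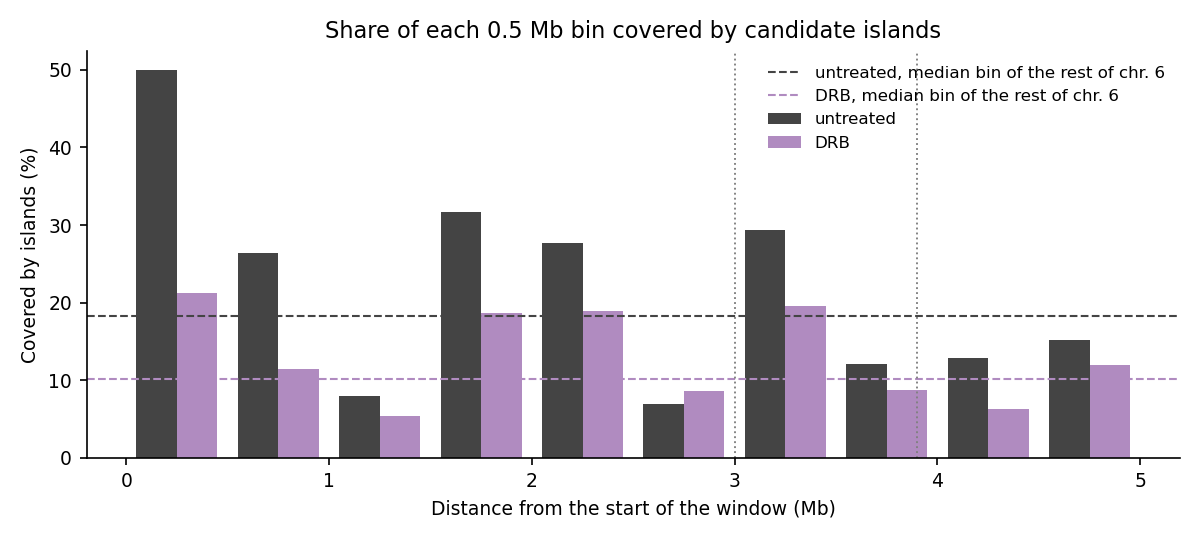
Share of each 0.5 Mb block covered by candidate islands (vertical axis, percent) against distance from the start of the MHC window (horizontal axis, Mb), for untreated (dark) and DRB (light) cells. Dashed lines are the median block of the rest of chromosome 6 in each condition (18.3% and 10.2%), and dotted lines are the bounds of class III. The first block reaches 49.96% untreated, and every block beyond the first dotted line but one lies below the untreated median.

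The widest stretch with no untreated candidate island was 268.4 kb, from 32386201 to 32654600, where class III meets class II. It was singled out after its extent was seen. With DRB, 3 islands lay inside it, with 59 IP reads and 40 input reads over 3.4 kb and folds of 1.24 to 1.32. The files hold reads in islands only, so whether this stretch lacked aligned reads or only lacked dense windows cannot be told apart here. HLA genes differ between people and have near copies, and how the alignment treated reads with several matches is not given in the sources used here.

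Within the islands METTL14 enrichment was slight, as it was on the rest of the chromosome. Fold below means the IP to input read ratio multiplied by the scaling constant of the deposited tables, which was 1.07 untreated and 0.861 with DRB. The 210 untreated islands held 64782 IP reads and 65670 input reads, a summed fold of 1.06 (1.05 to 1.07). The rest of chromosome 6 had 1.05 (1.05 to 1.06), and the ratio of the MHC to it was 1.00 (0.993 to 1.01; exact conditional test on summed reads, adjusted p = 0.520 over the 2 conditions). The median island was lower in the MHC, 1.04-fold (quartiles 0.99 and 1.14) against 1.07-fold (1.00 and 1.15) on the rest of the chromosome. MHC islands were narrower too: 15 of 210 (7.14%) reached 10 kb, 12 of them in class I and 3 in class III, against 16% on the rest of the chromosome.

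On the authors' significant list, which takes islands with a false discovery rate under 0.0001, stood 8 of the 210 untreated MHC islands (3.81%), against 5.1% of all 38695 nuclear candidates and 3.6% on the rest of chromosome 6. The exact binomial test on each island's reads, adjusted over all candidates (Benjamini-Hochberg, 0.05), found 8 higher in the IP, where 5.17% of all candidates were, and 0 lower, where 0.0827% were. Before adjustment, 43 of the 210 had p under 0.05 (20.5%), against 20.0% of all. The MHC share of called islands was thus near or under the background. By subregion, 6 of 138 in class I, 2 of 43 in class III and 0 of 29 in class II were on the list. With 95% intervals, 30 class I islands, 10 class III islands and 1 class II island lay wholly above 1, and 2 islands, both in class I, lay wholly below it. Those shares of the MHC, 19.5% above and 0.952% below, were near the 19% and 0.977% of all candidates.

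Of the 6 significant class I islands, 4 lay within 219.8 kb, between 30500 and 31000 kb. The highest fold of all untreated MHC islands was at 30781001 to 30783600, with reads of 176 in the IP and 127 in the input, a fold of 1.49 (1.18 to 1.88; exact binomial test, adjusted p = 0.0226). A neighbouring pair lay before it. The first, at 30563801 to 30569600, had 361 IP and 265 input reads and 1.46-fold (1.24 to 1.72; adjusted p = 0.000308, exact binomial test). The second, at 30572001 to 30588400, was 16.4 kb wide and had 1445 and 1290 reads, 1.2-fold (1.11 to 1.3; adjusted p = 0.000204, exact binomial test). The smallest p of the window was at 30705001 to 30714200, with 783 IP and 617 input reads over 9.2 kb and 1.36-fold (1.22 to 1.52; adjusted p = 2.21e-06, exact binomial test). These 4 islands together held 2765 IP and 2299 input reads, and the intervals of their folds overlapped one another.

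The other 2 lay within 16.2 kb, between 29000 and 29500 kb. At 29310201 to 29313800, 192 IP and 146 input reads gave 1.41-fold (1.13 to 1.76; adjusted p = 0.0415, exact binomial test). At 29321001 to 29326400, 285 and 232 reads gave 1.32-fold (1.1 to 1.57; adjusted p = 0.0423, exact binomial test). Both sat in a part of low input density, with 40.6 and 43.0 input reads per kb against a median of 56.6 in class I.

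In class III, the island at 32264201 to 32268600 had 347 IP and 282 input reads, 1.32-fold (1.13 to 1.55; adjusted p = 0.0195, exact binomial test). The island at 31823201 to 31834600 was 11.4 kb wide, with 820 and 751 reads and 1.17-fold (1.06 to 1.3; adjusted p = 0.0402, exact binomial test). The highest class III folds, 1.39 at 32223001 to 32224800 and 1.37 at 31599401 to 31603000, missed the authors' list and the adjusted binomial test (adjusted p = 0.147 and 0.0898, exact binomial test), with 122 and 170 IP reads. No class II island outside the part left out was called by either rule. The highest there was at 32919801 to 32923000, with 194 IP and 160 input reads and 1.3-fold (1.05 to 1.61), followed by 1.16-fold (0.956 to 1.42) at 32791201 to 32795000.

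At the other end, no island passed the test. The lowest untreated fold was 0.80 (0.660 to 0.980) at 29614601 to 29618200 in class I, with 180 IP and 240 input reads, and 28599801 to 28603400 had 0.85 (0.700 to 1.04). In class III, 31863601 to 31866600 had 0.87 and 31908001 to 31909200 had 0.90. In class II, 33085801 to 33087200 and 32804201 to 32807000 both had 0.85. The lowest islands of class III and class II had 74.3 to 90.8 input reads per kb, above the medians of 65.2 and 60.9. Across all untreated MHC islands, fold and input density had a Spearman's rho of -0.40, as a description; input reads enter both quantities.

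The widest islands had folds close to those of their subregions. At 28998001 to 29015800 in class I, 17.8 kb held 886 IP and 856 input reads, 1.11-fold (1.01 to 1.22). The 15.2 kb island at 31696801 to 31712000 in class III had 1145 and 1103 reads and the same 1.11-fold (1.02 to 1.21). The widest of class II, 9.4 kb at 33164601 to 33174000, had 0.98-fold (0.884 to 1.09).

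**Figure D2:**
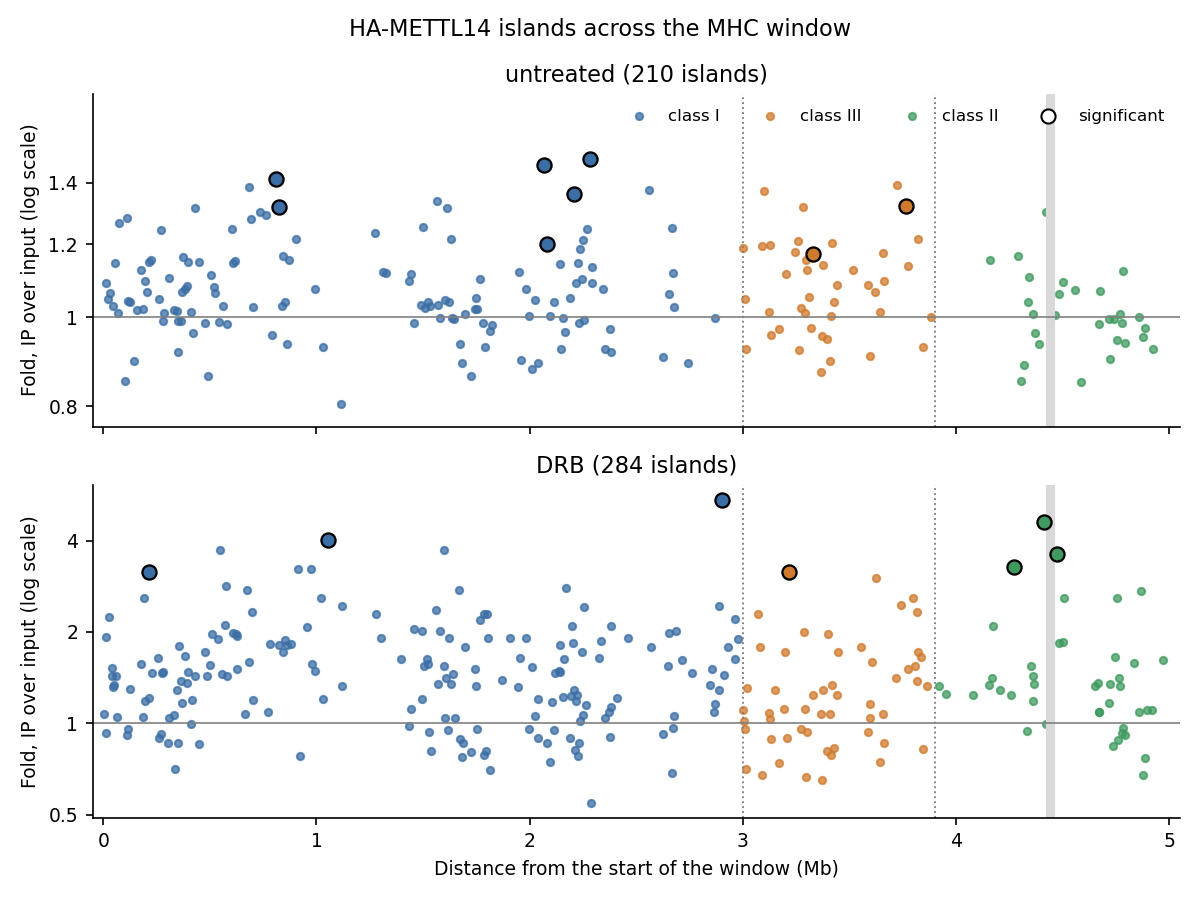
Fold of each MHC island (vertical axis, IP over input, log scale, with a different range in each panel) against distance from the start of the window (horizontal axis, Mb), untreated above and DRB below. Colours mark the subregions, black outlines the islands on the authors' significant list, dotted lines the bounds of class III and the grey band the part left out. Untreated significant islands sit at 1.17 to 1.49, with 0 of them in class II, and DRB ones at 3.16 to 5.45.

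Summed over each subregion, untreated class II had a slightly lower fold than the others. Class I gave 43769 IP and 44162 input reads, 1.06-fold (1.05 to 1.08). Class III gave 13669 and 13660, 1.07-fold (1.05 to 1.1). Class II gave 7344 and 7848, 1.00-fold (0.972 to 1.04), and 16 of its 29 islands were under 1, against 40 of 138 and 12 of 43. The class II fold was 0.944 times that of class I (0.912 to 0.977; exact conditional test on summed reads, adjusted p = 0.00265 over 6 pairs) and 0.935 times that of class III (0.899 to 0.973; adjusted p = 0.00265, same exact test). Class III and class I were not told apart, at a ratio of 1.01 (0.983 to 1.04; adjusted p = 0.591, same exact test). Against the rest of chromosome 6 class II was at 0.952 times (0.922 to 0.983; exact conditional test, adjusted p = 0.00776), while class I at 1.01 times (0.995 to 1.02) and class III at 1.02 times (0.994 to 1.04) were not told apart from it (adjusted p = 0.224 and 0.213, same exact test). With the spread of folds between islands added in a quasi-binomial model, class II over class I had an adjusted p of 0.0307. Class II over class III had 0.0199 and class II over the rest of chromosome 6 had 0.0431, in the same model.

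The outer part of class II had the lower value. From 33100 to 33500 kb, 14 islands had 0.98-fold (0.940 to 1.03), and from 32400 to 33100 kb, 15 islands had 1.03-fold (0.983 to 1.08). With class I limited to 29600 to 31500 kb and class II to 32400 to 33100 kb, the ratio of class II to class I was 0.972 (0.924 to 1.02; exact conditional test, adjusted p = 0.341) and that of class II to class III 0.960 (0.911 to 1.01; adjusted p = 0.199, same exact test). Input density was the highest in the same outer part, with a median of 73.1 reads per kb against 50.4 in the inner one. Its part in the result was not tested.

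After DRB the order of the subregions was another one. Class III had the lowest summed fold, 1.07 (0.999 to 1.15) from 1863 IP and 1498 input reads. Class I had 1.22 (1.17 to 1.27) from 5450 and 3843, and class II 1.22 (1.12 to 1.33) from 1294 and 914. Class III was at 0.877 times class I (0.809 to 0.95; exact conditional test on summed reads, adjusted p = 0.00265 over 6 pairs), and class II at 1.14 times class III (1.02 to 1.27; adjusted p = 0.0311, same exact test). Class II and class I were at a ratio of 0.998 (0.908 to 1.1; adjusted p = 0.990, same exact test). Within class II, the 20 islands from 32400 to 33100 kb had 1.53-fold (1.31 to 1.78) and the 23 from 33100 to 33500 kb had 1.09-fold (0.985 to 1.21). With the narrower bounds, class II was at 1.32 times class I (1.13 to 1.56; adjusted p = 0.00180, same exact test) and at 1.43 times class III (1.21 to 1.69; adjusted p = 0.000145, same exact test). The median island had 1.45-fold in class I, 1.14-fold in class III and 1.33-fold in class II, against 1.46-fold on the rest of chromosome 6 and 1.51-fold over all DRB candidates. The baseline of the DRB table is therefore well above 1, and a subregion is read against the rest of the chromosome.

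Read that way, the MHC had a low summed fold after DRB. Its 284 islands had 1.18-fold (1.15 to 1.22) from 8607 IP and 6255 input reads, 0.918 times the rest of chromosome 6 (0.888 to 0.949; exact conditional test on summed reads, adjusted p = 1.01e-06). Class III was at 0.830 times the rest (0.775 to 0.889; adjusted p = 6.48e-07, same exact test), class I at 0.946 times (0.907 to 0.987; adjusted p = 0.0200, same exact test) and class II at 0.945 times (0.867 to 1.03; adjusted p = 0.224, same exact test). Not every part was below the 1.29-fold of the rest. The part from 28500 to 29600 kb had 1.33-fold (1.24 to 1.42), and that from 32400 to 33100 kb had 1.53-fold (1.31 to 1.78). Lower were 29600 to 31500 kb at 1.15-fold, 31500 to 32400 kb at 1.07-fold and 33100 to 33500 kb at 1.09-fold. Folds varied between islands by more than counting error. When that spread was added with a quasi-binomial model, the class III value kept an adjusted p of 1.24e-05 and the MHC value one of 1.57e-05, but class II over class III went to an adjusted p of 0.0810.

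Input density differed between the subregions too. DRB islands of class III had a median of 10.1 input reads per kb, those of class I 8.18 and of class II 8.75, against 7.06 on the rest of the chromosome. Over the 10 blocks of 0.5 Mb, Spearman's rho of summed fold and median input density was -0.82 with DRB and -0.03 untreated, as a description, with input reads in both quantities. The block at 29000 to 29500 kb had the highest DRB fold, 1.72 (1.51 to 1.96), and the lowest input density, 6.07 reads per kb. It also had the highest untreated fold, 1.11 (1.08 to 1.15), and the lowest untreated density, 44.3. The block at 31500 to 32000 kb had the lowest DRB fold, 1.03 (0.951 to 1.12), and the highest density, 11.3. Among islands with total reads per kb at or above the candidate median, class III was at 0.878 times class I with DRB (0.801 to 0.963; exact conditional test, adjusted p = 0.0224). With only islands of at least 20 input reads it was at 0.923 times (0.839 to 1.02; adjusted p = 0.157, same exact test), and with the narrower bounds at 0.927 times (0.85 to 1.01; adjusted p = 0.176, same exact test). The 76 islands from 28500 to 29600 kb, which those bounds leave out of class I, had 1.33-fold (1.24 to 1.42). The limit on total reads per kb counts IP and input reads together and does not match input density between subregions. The part of input density in these values was not tested.

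**Figure D3:**
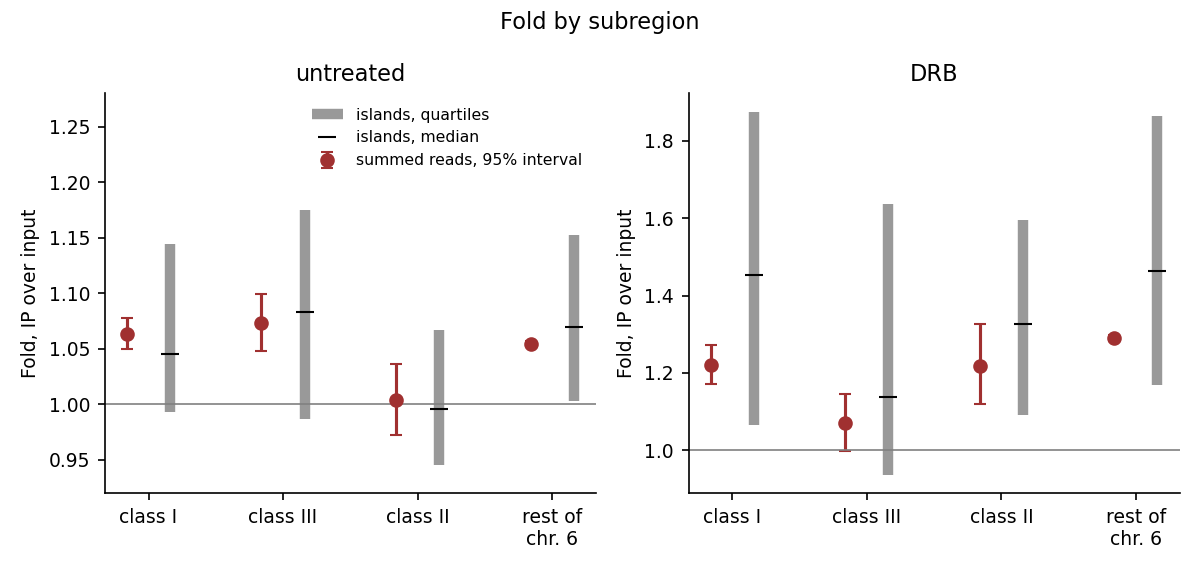
Fold (vertical axis, IP over input, with a different range in each panel) of class I, class III, class II and the rest of chromosome 6, untreated left and DRB right. Red points are summed reads with exact 95% intervals of counting error, grey bars the quartiles over islands and black ticks their medians. Class II is the lowest group untreated, at 1.00-fold, and class III with DRB, at 1.07-fold.

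On the authors' significant list after DRB were 7 of the 284 MHC islands (2.46%), against 4.76% of all DRB candidates and 3.44% on the rest of chromosome 6. The exact binomial test called 0 of the 284 higher or lower at an adjusted p of 0.05, where 0.00885% and 0.0811% of all candidates were; 27 had an unadjusted p under 0.05 (9.51%), against 12.9% of all. The 7 were narrow, with a median width of 1.0 kb, and rested on 3 to 6 input reads each. In class I, the island at 31400601 to 31402000 held 19 IP and 3 input reads, 5.45-fold with an interval of 1.6 to 28.8. At 29551601 to 29552800, 14 stood against 3 (4.02-fold, 1.12 to 21.8), and at 28716001 to 28717000, 22 against 6 (3.16-fold, 1.24 to 9.51). The single class III island, at 31714801 to 31715600, also had 22 against 6. In class II, 32912201 to 32912800 had 16 against 3 (4.59-fold, 1.31 to 24.6), 32971801 to 32972600 had 21 against 5 (3.61-fold, 1.33 to 12.3) and 32771801 to 32773000 had 19 against 5 (3.27-fold, 1.18 to 11.2). All 7 had the same adjusted p of 0.353 in the exact binomial test. Only the island at 28716001 lay over an untreated candidate, which had 1.15-fold (1.01 to 1.3), and the other 6 had no untreated island and so no untreated value. Of all DRB islands of the MHC, 65.8% lay over an untreated one, as did 52.1% of all DRB candidates. No test of that difference was made.

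Deeper DRB islands spanned a narrower range. Among those with at least 20 input reads, the highest folds in class I were 1.89 (1.09 to 3.39) at 29039001 to 29041000 and 1.89 (1.1 to 3.33) at 29350601 to 29353600. In class II they were 1.85 (1.07 to 3.32) at 33000401 to 33003400 and 1.55 (0.873 to 2.82) at 32852401 to 32856200. In class III the highest were 1.31 (0.799 to 2.16) at 31517801 to 31523200 and 1.29 (0.766 to 2.21) at 31874601 to 31877800. That order depends on the read minimum: the class III island at 31785401 to 31788600, named after its values were seen, had 44 IP and 19 input reads and 1.99-fold (1.14 to 3.61). The lowest were 0.55 (0.301 to 0.975) at 30789601 to 30790600 in class I, where 21 IP reads met 33 input reads, 0.65 (0.372 to 1.13) at 31868401 to 31870400 in class III and 0.68 (0.369 to 1.23) at 33377201 to 33378200 in class II. Next to these came 0.69 at 31164401 to 31166800, 0.67 at 31794801 to 31795600 and 0.77 at 33383601 to 33387800. The widest DRB islands had 0.86-fold (0.682 to 1.09) at 30578001 to 30585800, 1.24-fold (0.907 to 1.71) at 31826601 to 31834400 and 1.11-fold (0.712 to 1.74) at 33393201 to 33399200.

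Many islands of the conditions overlapped. Of the 210 untreated MHC islands, 151 (71.9%) lay under at least 1 DRB island, against 63.9% on the rest of chromosome 6 and 61.1% of all; no test of that difference was made. Of the 284 DRB islands, 187 (65.8%) lay over an untreated one, against 63.4% on the rest of chromosome 6 and 52.1% of all. DRB islands covered 486.4 kb there against 865.2 kb of untreated islands, so each pair of folds covers partly different sequence. Over the 151, the untreated median was 1.03-fold and the DRB median 1.11-fold. The median ratio of DRB to untreated was 1.11 in the MHC, against 1.26 on the rest of chromosome 6 and 1.22 over all 23636 such islands. No MHC island passed the exact conditional test on both conditions' reads after adjustment over all of them, in either direction, where 0.465% of all were called lower and 0.0931% higher with DRB. An unadjusted p under 0.05 was found for 8 of the 151 (5.3%), against 8.83% of all and 9.95% on the rest of chromosome 6, and the smallest adjusted p was 0.324.

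The subregions had different ratios in these shared islands. In class III the DRB fold was lower than the untreated fold in 21 of 32 islands, with a median ratio of 0.89 (quartiles 0.83 and 1.12). In class I it was lower in 30 of 99, with a median ratio of 1.25 (0.94 and 1.54), and in class II in 9 of 20, with 1.13 (0.90 and 1.24). Those shares are 65.6%, 30.3% and 45%, against 19.2% on the rest of chromosome 6 and 23.9% of all overlapping islands. All 3 subregions thus had a larger share of lower islands than either, without a test of the difference. A DRB island over several untreated islands counts once for each in these shares and medians. In class III, the untreated islands at 31797601, 31800601 and 31807001 lay under the same 7.6 kb DRB island and all count as lower. Summed, class III went from 1.06-fold to 0.98-fold, a ratio of 0.923 (0.852 to 0.999; exact conditional test with the authors' scaling, adjusted p = 0.0693 over 3 subregions). Class I had 1.05 and 1.14, a ratio of 1.08 (1.03 to 1.14; adjusted p = 0.00334, same exact test), and class II 1.01 and 1.09, a ratio of 1.09 (0.974 to 1.21; adjusted p = 0.140, same exact test). All these islands had first to pass the call for many reads. Over all class I islands, the median was 22 IP and 14 input reads with DRB, against 249.5 and 239 untreated. The exact test does not allow for that call, which may weigh more on folds from few reads. A ratio above 1 with the authors' scaling therefore cannot show a rise with DRB. With the same scaling, the shared islands of the rest of chromosome 6 stood at 1.15. Scaled to those, all subregions were below 1: class III at 0.804 (0.743 to 0.870; adjusted p = 1.78e-07, same exact test), class I at 0.944 (0.900 to 0.991; adjusted p = 0.0302, same exact test) and class II at 0.946 (0.849 to 1.05; adjusted p = 0.322, same exact test). With the authors' scaling and a reciprocal overlap of at least 50%, class I was at 0.989 (0.920 to 1.06; adjusted p = 0.955, same exact test), class II at 0.992 (0.843 to 1.17) and class III at 0.908 (0.816 to 1.01; adjusted p = 0.220, same exact test). Over all candidate islands class III was at 0.997 (0.927 to 1.07; adjusted p = 0.948, same exact test). The direction for class I and class II thus depends on the scaling and on the overlap asked for. Class III was below 1 under each of these settings, but close to 1 over all candidates.

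The ratio was also split into its IP and input reads. Relative to the shared islands of the rest of chromosome 6, DRB over untreated IP reads per kb were 0.935 in class III, 1.00 in class I and 1.23 in class II. The same quantity for input reads was 1.16 in class III, 1.06 in class I and 1.3 in class II. Reads per kb were taken over each condition's own islands, in class III 110 kb with DRB and 174.6 kb untreated. They are therefore not changes over the same sequence. Across islands, Spearman's rho of the untreated and DRB folds was 0.39 over the 32 of class III, 0.30 over the 20 of class II and 0.03 over the 99 of class I, against 0.15 on the rest of chromosome 6. These are descriptions of sites that share sequence and copy number, and some untreated islands share a DRB island.

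**Figure D4:**
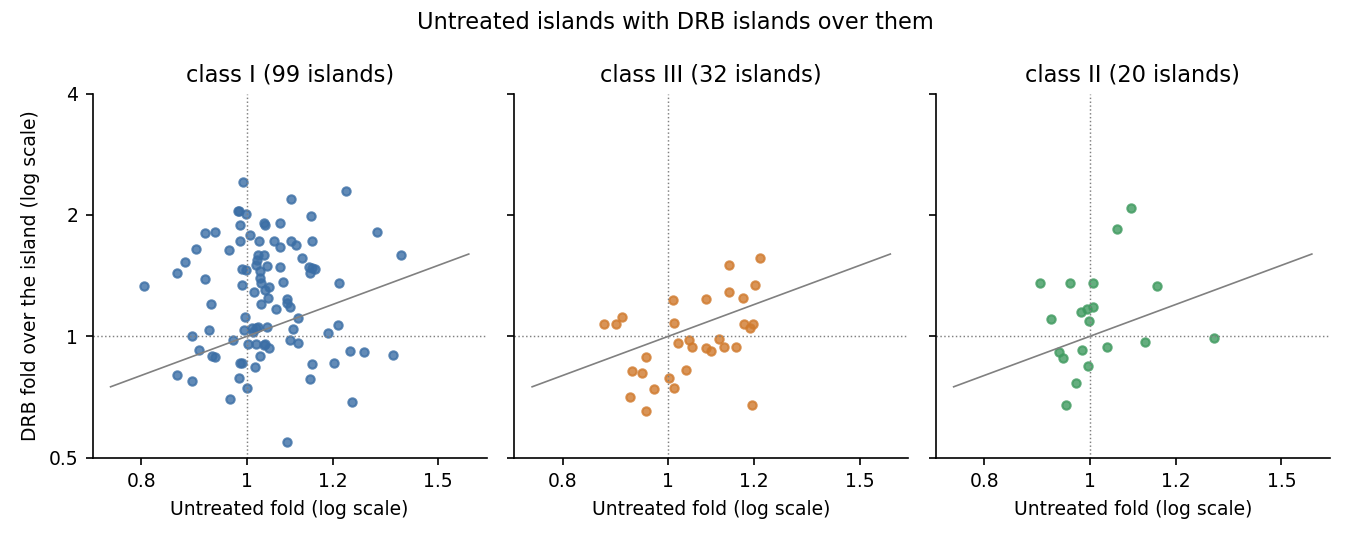
Fold with DRB, summed over all DRB islands on an untreated island (vertical axis, log scale), against the untreated fold of that island (horizontal axis, log scale), 1 point per untreated island and 1 panel per subregion. The solid line marks equal folds, and dotted lines a fold of 1. A DRB island over several untreated islands enters each of their points. In class III, 21 of 32 points lie under the line, and in class I 30 of 99.

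Of the 8 untreated significant islands, 4 could be set against DRB values. At 30572001 to 30588400, a 7.8 kb DRB island inside the untreated one had 150 IP and 150 input reads, 0.86-fold (0.682 to 1.09) against 1.2, a ratio of 0.716 (0.560 to 0.916; adjusted p = 0.340, exact conditional test). At 30705001 to 30714200, DRB islands over 5.0 kb had 73 and 70 reads, 0.90-fold (0.638 to 1.26) against 1.36, a ratio of 0.659 (0.460 to 0.945; adjusted p = 0.477, exact conditional test). The other 2 had higher DRB folds: 1.82 (0.783 to 4.56) at 29321001 to 29326400, from 19 IP and 9 input reads, and 1.24 (0.907 to 1.71) at 31823201 to 31834600, from 101 and 70. None of the 4 passed the test after adjustment over all overlapping islands. The intervals of the first 2 ratios lay below 1 (unadjusted p = 0.00733 and 0.0227, exact conditional test), and those of the other 2 held 1. All 4 were chosen as significant untreated, and the untreated fold is also the denominator of the ratio. That choice favours ratios below 1, so these p-values cannot show a change with DRB. The islands at 29310201, 30563801, 30781001 and 32264201 lay under no DRB island. Of all untreated islands of the MHC, 71.9% lay under one, as did 61.1% of all untreated candidates. The 8 islands were not tested against those shares.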

How the data were processed

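The series holds 6 libraries of HepG2 cells, single-end reads of 50 nt. Per the submitters' processing notes, FastQC 0.11.5, Bowtie 1.1.2, SICER and the build hg19 were used; for SICER's settings and the pooling of the 2 untreated replicates, nothing is given in the sources used here. The authors deposited, per condition, raw read counts of IP and input per island, p-values and false discovery rates, and the fold, a ratio that equals IP over input times 1 constant. The files have no headers, so these meanings were tested on the values. Other deposited columns are island positions (other numbers), taken 1-based. Depth is the reads in islands, given with each value.

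Computed here were folds with Clopper-Pearson intervals, exact binomial tests adjusted (Benjamini-Hochberg) over all nuclear islands, and exact conditional tests of summed reads or of overlapping islands, 2-sided by doubling the smaller tail. They compare these libraries, not conditions. Reads are not independent molecules. The likelihood-ratio tests, the quasi-binomial spread and the limit on total reads per kb were added after the data were seen. The exact tests were tested on simulated data with counting error only. That cannot show how they behave with the added spread between the real islands. Named islands were those significant or called, the widest, and the 2 highest and 2 lowest per subregion with at least 20 input reads. The members and lists were chosen with earlier results of these data known. hg19 sequence and gene annotation were not used here. Software was SciPy 1.17.1 with Python 3.11.15, pandas 2.3.3 with numpy 2.4.6, and for plots matplotlib 3.10.9.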

Additional observations from a re-analysis of the deposited data

Results flagged for a closer look

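Over all MHC islands, the contrast of class III with the other subregions differed between the conditions. Class III over class I was 1.01 untreated and 0.877 with DRB, so that the DRB ratio was 0.869 times the untreated one (binomial likelihood-ratio test on summed reads, adjusted p = 0.00155 over 3 contrasts; 0.785 to 0.961 and adjusted p = 0.00949 with the spread over islands). Class II over class III was 0.935 untreated and 1.14 with DRB, 1.22 times as high (adjusted p = 0.00155, same binomial test; 1.06 to 1.4 and adjusted p = 0.00949 with the spread over islands). Class II over class I did not pass, at 1.06 times (adjusted p = 0.276, same binomial test). With the narrower bounds, class III over class I no longer passed, at 0.915 (adjusted p = 0.0568, same binomial test), and class II over class I did, at 1.36 (adjusted p = 0.000411, same binomial test). With at least 20 input reads, class III over class I was also at 0.915 and did not pass (adjusted p = 0.114, same binomial test). Class II over class III passed under both, at 1.49 and 1.21 (adjusted p = 1.8e-05 and 0.0207, same binomial test). In the shared islands alone, the first was 0.851 (adjusted p = 0.00185, and 0.00716 with the spread over islands, same binomial tests) and the second 1.18 (adjusted p = 0.0244 and 0.0330, same binomial tests). The tests were chosen after the values were seen, compare 1 pooled table with 1 pair of libraries, and use islands called separately in each condition. Median input density with DRB was 10.1 reads per kb in class III, against 8.18 in class I and 8.75 in class II, and 65.2, 56.6 and 60.9 untreated. Its part in the contrast was not tested.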

How the results depend on the processing

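No paired analysis was possible because the deposited tables pool the replicates of a condition, and no replicate could be left out for the same reason. Of 98 alternatives over 17 results, 71 kept the direction and the side of the threshold or the size. With the narrower bounds, untreated class II over class I (0.972) and over class III (0.960), and with DRB class III over class I (0.927), no longer passed; DRB class II over class I turned and passed at 1.32. The contrasts between conditions were then 0.915 for class III over class I, which no longer passed, and 1.36 for class II over class I, which now did. With at least 20 input reads, DRB class III over class I (0.923), class II over class III (1.13) and the first contrast between conditions (0.915) no longer passed, and DRB class II over class I turned to 1.04. It turned to 1.03 at total reads per kb at or above the candidate median. By medians over islands, DRB class III over class I was 0.783, and the untreated MHC over the rest of chromosome 6 was 0.974; against all other nuclear islands the latter turned to 0.998. With the spread over islands (quasi-binomial model), DRB class II over class III (1.14) and the MHC ratio of DRB to untreated (1.04, adjusted p = 0.0748) no longer passed. That ratio at 50% reciprocal overlap turned to 0.989 in class I, 0.992 in class II and 0.964 in the MHC. Scaled to the rest of chromosome 6 it turned to 0.944, 0.946 and 0.908, and class III passed at 0.804. Over all candidate islands class II passed at 1.21. With the authors' scaling that value cannot show a rise with DRB, because the test does not allow for the call of the islands. At a 10 times lower false discovery rate 5 untreated and 1 DRB islands were significant, and by the exact binomial test 0 DRB islands. Depth was lower with DRB, with a median of 15 input reads per MHC island against 249 untreated.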
